A study of Mus musculus with 30 samples.

Results

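The genes described here are 10 members of the semaphorin signalling family: the ligand genes Sema4a, Sema4b, Sema4d and Sema7a, the plexin receptor genes Plxna1, Plxnb2, Plxnc1 and Plxnd1, and the co-receptor genes Nrp1 and Nrp2. These 10 of 21896 protein-coding mouse genes were chosen by family, with their acetylation peak lengths in these lists already known, so the lengths below are a description and carry no test. A peak belonged to a gene when it overlapped the gene's RefSeq span or 1 kb on either side, and otherwise when that gene had the nearest end within 50 kb. Covered length, in kb, is the summed width of a gene's peaks in 1 list. The 10 genes had 31 to 133 peaks in an LPD or B cell acetylation list, and 23 and 41 in the Crebbp-null and wild-type progenitor lists.

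The study mapped acetylated chromatin and the acetyltransferase Crebbp (CBP) by ChIP-seq in C57BL/6 mice that lose Crebbp and develop lymphoproliferative disease (LPD). LPD samples were unsorted bulk splenocytes of Crebbp-/- mice (CBPfl/fl:Mx-Cre+), and B cells were B220+ splenocytes sorted from wild-type mice (CBPfl/fl:Mx-Cre-), which carry the floxed alleles too. H3K27ac, H3K18ac and H3K56ac had 2 peak lists each in LPD and 2 in B cells, CBP had 1 list in wild-type B cells, and H3K27ac had 1 list in Crebbp-/- and 1 in wild-type lymphoid progenitors (Lin- IL7ra+ bone marrow cells). The labels do not say whether 2 lists of a group came from separate animals, and Mx-Cre is an inducible driver that is not confined to lymphoid cells. LPD and B cells differed at once in genotype, disease and sorting, so these cannot be told apart, nor can fewer cells of a type from less acetylation per cell. The design mentions expression data, which were not analysed here.

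Semaphorins are secreted or membrane-bound proteins first known for guiding axons, and several act between immune cells. Class 4 semaphorins span the membrane, and Sema7a is held to it by a lipid anchor. Plexins bind semaphorins and switch off small GTPases of the Rap and Ras families inside the cell, while neuropilins, which lack such a domain, join plexins as co-receptors for class 3 semaphorins and also bind VEGF. In lymphoid tissue Sema4d, also called CD100, is known as a ligand of B cells that acts through Cd72 and plexin-B receptors. Acetylation of histone H3 at lysines 27, 18 and 56 marks active promoters and enhancers, and CBP is one of the enzymes that places it.

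The RefSeq promoters of 5 members are shown because they differ in which lists acetylate the start, each reaching from 250 bases before a start to 50 after it (build GRCm38.p6, 5′ to 3′ on the gene's strand). The windows of Nrp2 (chr1:62703067-62703366, plus strand), Nrp1 (chr8:128358823-128359122, plus strand) and the inner start of Plxnb2 (chr15:89173902-89174201, minus strand) overlapped a peak in both LPD lists of each of the 3 marks and in no B cell or progenitor list. In the Plxnb2 window LPD H3K27ac peaks covered 178 and 41 of 300 bases. Outside that window, both B cell lists had H3K18ac and H3K56ac peaks in the same stretches of overlapping peaks, 1.35 and 1.63 kb wide. The first start of Sema4b (chr7:80186620-80186919, plus strand) overlapped a peak in both LPD and both B cell lists of each mark. The outermost tabulated start of Sema4d (chr13:51756634-51756933, minus strand) did so for H3K27ac and H3K18ac. Its window also overlapped a peak in both progenitor lists, and in the LPD but not the B cell lists of H3K56ac. These LPD H3K56ac peaks covered only 29 and 28 of 300 bases, and the Crebbp-null progenitor peak 29. The nearest B cell H3K56ac peaks began just past the window, 0.077 and 0.185 kb after the start. Capitals mark the GC box GGGCGG on either strand.
Nrp2: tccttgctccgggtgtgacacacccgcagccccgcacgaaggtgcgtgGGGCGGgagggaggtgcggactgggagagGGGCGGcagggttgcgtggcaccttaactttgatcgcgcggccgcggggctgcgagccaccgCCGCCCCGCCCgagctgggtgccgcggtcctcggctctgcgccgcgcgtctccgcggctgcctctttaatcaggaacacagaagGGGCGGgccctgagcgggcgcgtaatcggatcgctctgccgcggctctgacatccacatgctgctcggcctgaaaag
Nrp1: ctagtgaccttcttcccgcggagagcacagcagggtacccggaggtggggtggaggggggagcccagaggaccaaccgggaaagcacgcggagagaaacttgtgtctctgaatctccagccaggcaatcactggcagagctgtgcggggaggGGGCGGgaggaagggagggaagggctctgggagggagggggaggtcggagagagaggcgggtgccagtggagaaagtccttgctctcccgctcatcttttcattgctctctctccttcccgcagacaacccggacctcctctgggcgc
Plxnb2: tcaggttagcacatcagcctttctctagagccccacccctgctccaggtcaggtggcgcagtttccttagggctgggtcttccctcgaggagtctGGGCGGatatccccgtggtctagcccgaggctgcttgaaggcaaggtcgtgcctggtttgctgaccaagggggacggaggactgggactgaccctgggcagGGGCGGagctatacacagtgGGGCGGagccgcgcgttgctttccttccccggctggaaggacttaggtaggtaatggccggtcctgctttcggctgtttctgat
Sema4b: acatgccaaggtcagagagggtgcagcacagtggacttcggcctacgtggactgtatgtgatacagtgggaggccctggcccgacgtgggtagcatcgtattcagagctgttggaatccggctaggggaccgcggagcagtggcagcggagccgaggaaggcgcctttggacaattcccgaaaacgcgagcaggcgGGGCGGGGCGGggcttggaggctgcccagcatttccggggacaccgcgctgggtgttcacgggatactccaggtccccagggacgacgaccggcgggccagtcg
Sema4d: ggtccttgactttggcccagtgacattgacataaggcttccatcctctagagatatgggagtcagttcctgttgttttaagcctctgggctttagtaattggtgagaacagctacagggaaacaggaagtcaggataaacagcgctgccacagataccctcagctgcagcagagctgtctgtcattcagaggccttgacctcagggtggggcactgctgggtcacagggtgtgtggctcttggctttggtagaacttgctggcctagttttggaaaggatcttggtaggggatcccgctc

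The GC box, a motif of many unmethylated CG-rich promoters, occurred 5 times in the Nrp2 window, overlaps counted, 3 times in that of Plxnb2, 2 times in that of Sema4b and once in that of Nrp1. The printed Sema4d window had none, 2 CG pairs and 52% G and C, against 37 CG pairs and 70.7% in Nrp2. The RefSeq span of Sema4d runs from -37.0 to 71.2 kb of the start in that window, so the window lies inside the gene. Another tabulated start of Sema4d held 1 GC box. Of 32851 RefSeq promoters, 35.7% held a GC box. No window of the 9 members with a tabulated promoter held TGACGTCA, the full cAMP response element bound by CREB, which 1.79% of all promoters held. Plxna1 has no entry in the promoter table.

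The receptor genes carried more acetylated length in LPD than in B cells in all 3 marks, while the summed ligand length was lower for H3K27ac, through Sema4d alone, and higher for the other marks. In H3K27ac the 6 receptor genes summed to 40.6 ± 12.0 kb in LPD and 11.04 ± 0.0651 kb in B cells (SD, n = 2 lists each), a log2 ratio of 1.88. The 4 ligand genes summed to 35.4 ± 8.57 kb in LPD and 53.1 ± 3.34 kb in B cells, a log2 ratio of -0.59. Both LPD lists lay above both B cell lists for the receptors and below both for the ligands. The ligand deficit came from Sema4d: the other 3 ligand genes summed to 27.5 and 20.8 kb in LPD and 20.1 and 19.3 kb in B cells, so that both LPD lists were the longer, with a log2 ratio of 0.29. That sum without Sema4d was chosen after seeing the data.

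In H3K18ac the receptors summed to 50.3 ± 14.4 kb in LPD and 7.75 ± 1.37 kb in B cells, a log2 ratio of 2.70, and the ligands to 38.8 ± 10.2 kb in LPD and 15.6 ± 1.88 kb in B cells, a log2 ratio of 1.32. Receptors and ligands were thus both longer in LPD, the receptors by more. In H3K56ac the receptors summed to 30.8 ± 1.98 kb in LPD and 3.99 ± 0.987 kb in B cells, a log2 ratio of 2.95. The ligands summed to 23.4 ± 0.104 kb in LPD and 11.4 ± 0.275 kb in B cells, a log2 ratio of 1.03. The whole lists themselves differed in length, by log2 ratios of -0.27 for H3K27ac, 0.90 for H3K18ac and 0.82 for H3K56ac. Per Mb of list the ligand ratios were -0.31, 0.42 and 0.21 and the receptor ratios 2.14, 1.79 and 2.14 in the order of marks above.

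**Figure D1:**
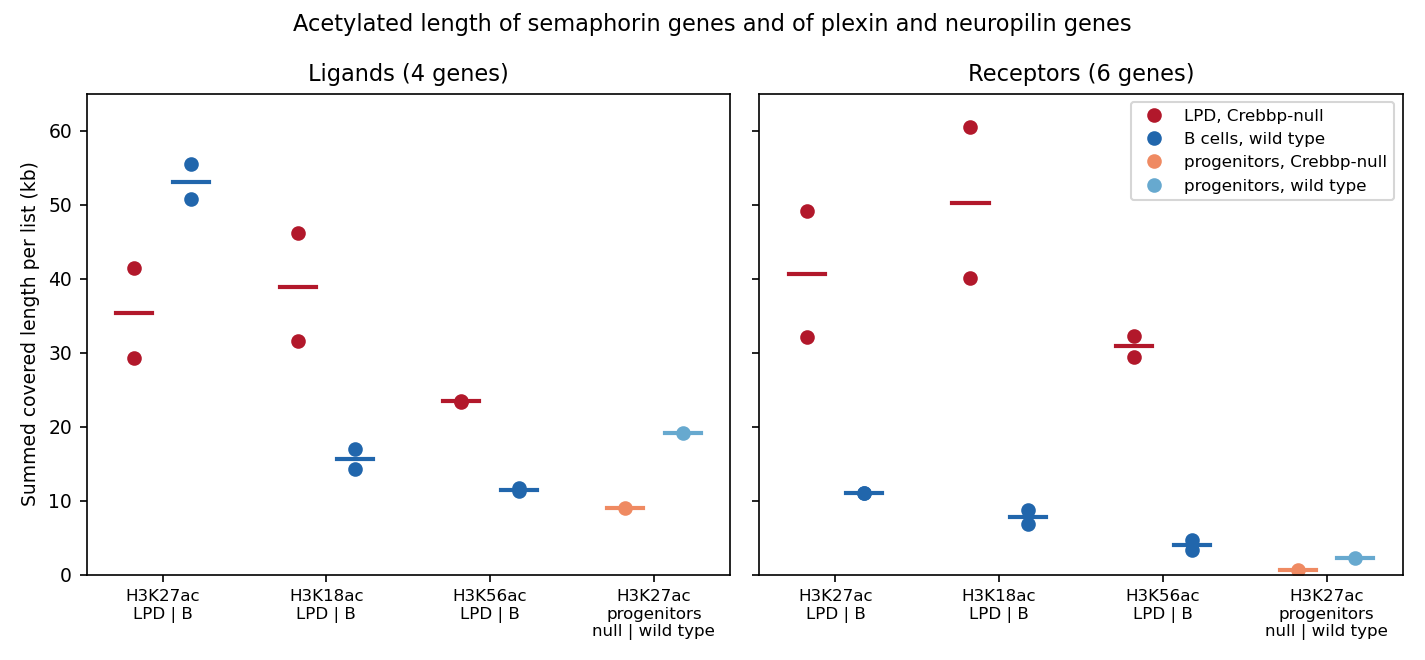
Summed covered length (kb, linear axis from 0) of the 4 ligand genes (left panel) and 6 receptor genes (right panel); each point is 1 peak list and each bar the group mean. Receptors sum to 40.6 kb in LPD and 11.04 kb in B cells for H3K27ac, while ligands sum to 35.4 kb in LPD and 53.1 kb in B cells.

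The receptor-minus-ligand difference of log2 ratios was 2.46 for H3K27ac, 1.38 for H3K18ac and 1.92 for H3K56ac. Without Nrp2 it was 1.84, 0.90 and 1.15, and without Sema4d 1.59, 0.32 and 0.56. With both genes left out, a choice also made after seeing the data, it was 0.96 for H3K27ac but -0.16 for H3K18ac and -0.21 for H3K56ac, so in H3K18ac and H3K56ac its sign rested on these 2 genes. Receptors held 53.3% of the 10 genes' H3K27ac length in LPD and 17.2% in B cells, 56.3% of their H3K18ac length in LPD and 33.1% in B cells, and 56.8% of their H3K56ac length in LPD and 25.7% in B cells. On the log2(kb + 0.1) scale the median gene ratio was 1.91 for receptors and 0.36 for ligands in H3K27ac, beside -0.10 over the 11989 genes with a peak. The medians were 2.53 and 1.49 in H3K18ac, beside 0.59 over all genes, and 2.26 and 1.89 in H3K56ac, beside 0.55.

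Of the 10 genes, 6 had more H3K27ac length in both LPD lists than in either B cell list, namely Sema4a, Sema7a, Plxnb2, Plxnc1, Nrp1 and Nrp2, and 1, Sema4d, had less. Sema4a and Nrp1 had no H3K27ac peak in B cells, and Sema4a, Plxna1, Nrp1 and Nrp2 no H3K56ac peak there, so these could not be shorter in LPD. Of all genes with an H3K27ac peak, 23% were longer in this sense and 38.9% shorter. In H3K18ac 9 genes were longer and none shorter, with Sema4d overlapping, beside 53.8% longer and 12% shorter of all genes. Per Mb of list, 6 genes were longer in H3K18ac, Sema4d was shorter, and Sema7a, Plxna1 and Plxnd1 overlapped. In H3K56ac 8 were longer and Sema4d shorter, with Plxnd1 overlapping, beside 67% longer and 8.44% shorter of all genes. For H3K56ac the members' count was thus near the background. Per Mb of list Sema4b joined the longer genes in H3K27ac and Sema7a came to overlap in H3K56ac. The shares of all genes above are of length in kb and were not computed per Mb, so the per-Mb counts have no background.

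**Figure D2:**
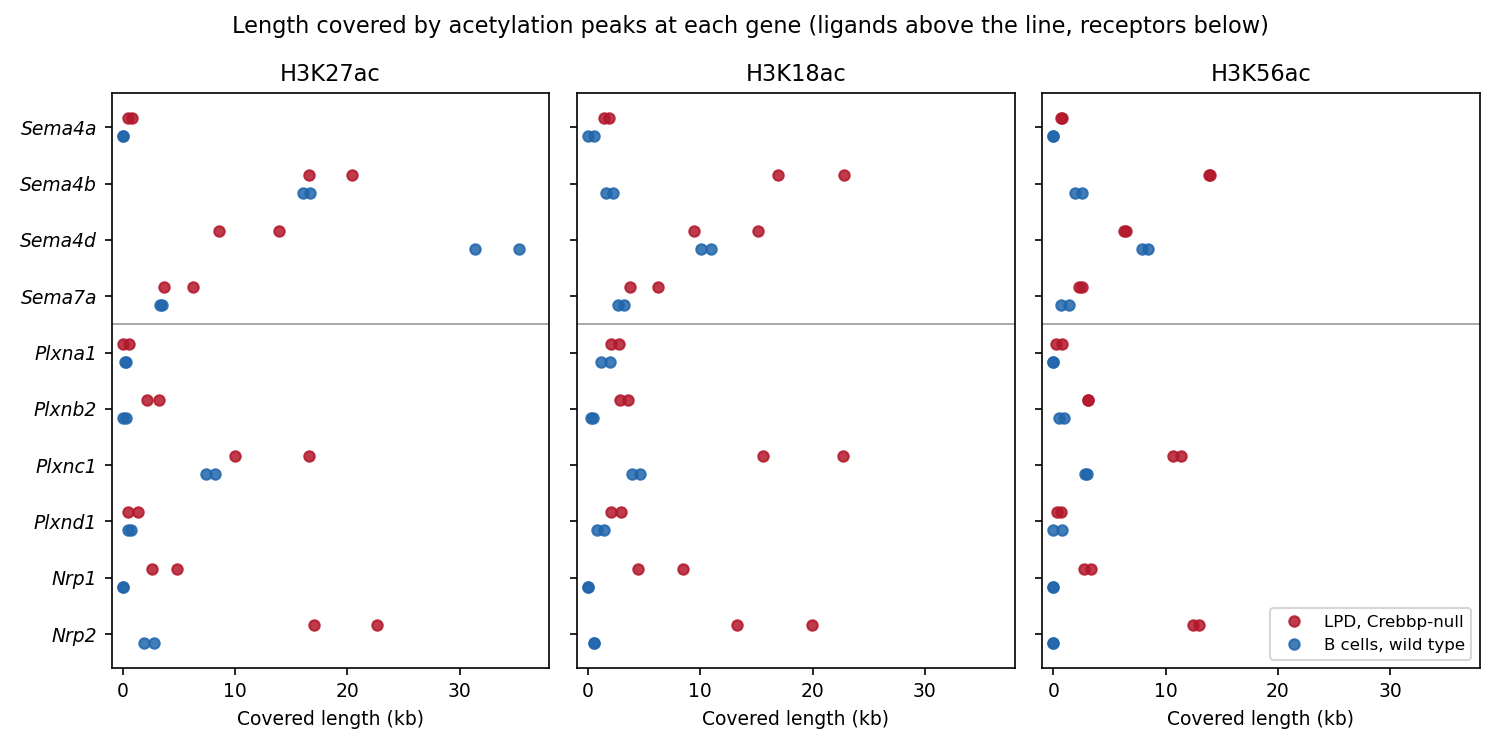
Covered length (kb) of each gene in each list; red points are the 2 LPD lists and blue points the 2 B cell lists, with ligands above the grey line and receptors below. Nrp2 lies between 17.0 and 22.6 kb in LPD and at 1.88 and 2.74 kb in B cells for H3K27ac, and Sema4d lies the other way.

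Sema4d carried the most H3K27ac of the 10 genes in B cells. Its H3K27ac peaks covered 13.95 and 8.55 kb in the LPD lists, against 35.3 and 31.4 kb in the B cell lists, a log2 ratio of -1.57. Its H3K56ac peaks covered 6.45 and 6.28 kb in LPD, against 8.47 and 7.91 kb in B cells, a log2 ratio of -0.36 that turned to 0.20, with both LPD lists longer, when peaks beyond 1 kb of the gene were left out. The LPD lists were lower than the B cell lists in both marks. In H3K18ac it covered 15.2 and 9.47 kb in LPD and 10.06 and 10.9 kb in B cells, and the groups overlapped. That H3K18ac result depended on the measure: per Mb of list it was 0.515 and 0.442 kb in LPD and 0.755 and 0.779 kb in B cells, a log2 ratio of -0.68, while within the span and 1 kb it was 14.7 and 8.99 kb in LPD and 5.37 and 6.33 kb in B cells, a log2 ratio of 1.003.

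Sema4b, a class 4 semaphorin, differed less in H3K27ac length than in the other marks. Its H3K27ac peaks covered 20.5 and 16.6 kb in LPD, against 16.7 and 16.02 kb in B cells, so the ranges overlapped. They did not overlap per Mb of list, at 0.782 and 0.908 kb in LPD and 0.615 and 0.606 kb in B cells, a log2 ratio of 0.47, nor within the span and 1 kb, at 20.5 and 16.6 kb in LPD and 15.3 and 15.2 kb in B cells. Its H3K18ac peaks covered 22.8 and 16.9 kb in LPD, against 1.56 and 2.25 kb in B cells, a log2 ratio of 3.38. Its H3K56ac peaks covered 13.98 and 13.85 kb in LPD, against 2.52 and 1.96 kb in B cells, a log2 ratio of 2.63. Both LPD lists stood well above both B cell lists in these 2 marks.

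Sema7a binds plexin-C1 and beta-1 integrins. Its H3K27ac peaks covered 6.23 and 3.70 kb in LPD and 3.46 and 3.31 kb in B cells, which did not overlap but lay close, a log2 ratio of 0.55. In H3K18ac it covered 6.23 and 3.76 kb in LPD and 2.64 and 3.23 kb in B cells. In H3K56ac it covered 2.31 and 2.57 kb in LPD and 0.641 and 1.38 kb in B cells. Both LPD lists were longer in each mark, though per Mb of list the H3K18ac and H3K56ac ranges overlapped and the H3K18ac ratio turned to -0.14. Sema4a, known in mice as a ligand of Tim-2 and plexins on T cells, carried little acetylation. It had 0.793 and 0.495 kb of H3K27ac in LPD and no peak in either B cell list, so it could differ in 1 direction only. It had 1.88 and 1.45 kb of H3K18ac in LPD and 0 and 0.547 kb in B cells, and 0.743 and 0.641 kb of H3K56ac in LPD with none in B cells. None of its 4 tabulated starts overlapped a peak in any list.

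Nrp2 differed most in length among the receptors. Its H3K27ac peaks covered 22.6 and 17.0 kb in LPD, against 2.74 and 1.88 kb in B cells, a log2 ratio of 3.10. Its H3K18ac peaks covered 19.96 and 13.2 kb in LPD, against 0.507 and 0.492 kb in B cells, a log2 ratio of 5.05. In H3K56ac it covered 12.4 and 13.0 kb in LPD and had no peak in B cells, so no ratio is given. Every LPD list stood far above every B cell list, and neither progenitor list had a peak at the gene.

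Nrp1, the other neuropilin, is known in mice from plasmacytoid dendritic cells, regulatory T cells and endothelium. Its peaks covered 4.82 and 2.62 kb of H3K27ac, 8.47 and 4.45 kb of H3K18ac and 2.72 and 3.35 kb of H3K56ac in LPD. Part of this length lay more than 1 kb from the gene span. That part was 1.34 and 0.227 kb of H3K27ac, 4.41 and 1.56 kb of H3K18ac and 0.273 and 0.756 kb of H3K56ac. Of the 7 gained H3K18ac regions of Nrp1, 5 lay outside the span, the farthest 191.4 kb from its start. No B cell list and no progenitor list had a peak assigned to Nrp1. Some markers of those cells were also longer in both LPD lists, beside 23%, 53.8% and 67% of all genes in H3K27ac, H3K18ac and H3K56ac. Of the 3 regulatory T cell markers, Foxp3 and Ikzf2 had no peak in any LPD or B cell list, while Ctla4 was longer in both LPD lists of every mark, with 6.74 and 3.95 kb of H3K27ac in LPD and 3.57 and 2.81 kb in B cells, 12.5 and 9.64 kb of H3K18ac in LPD and 3.90 and 3.62 kb in B cells, and 4.24 and 3.54 kb of H3K56ac in LPD and 1.59 and 1.35 kb in B cells. The endothelial genes Kdr and Tek had no peak in any of these lists. The 3 plasmacytoid dendritic markers Siglech, Ccr9 and Bst2 summed to 9.35 and 5.94 kb of H3K27ac in LPD and 6.31 and 6.34 kb in B cells, 1 of 3 being longer in both LPD lists. In H3K18ac these 3 summed to 15.8 and 12.7 kb in LPD and 3.77 and 4.75 kb in B cells, and in H3K56ac to 6.30 and 7.14 kb in LPD and 1.77 and 1.56 kb in B cells. In each of these marks 2 of 3 were longer, near the 53.8% and 67% of all genes. The 5 endothelial markers summed to 18.7 and 11.3 kb of H3K27ac in LPD, against 10.8 and 12.4 kb in B cells, with 3 of 5 at 0, and Pecam1 made up 16.6 and 10.5 kb of the LPD sums. Cdh5 was shorter, with 2.11 and 0.827 kb of H3K27ac in LPD and 2.78 and 2.53 kb in B cells. These 5 summed to 14.5 and 9.38 kb of H3K18ac in LPD and 1.59 and 1.48 kb in B cells, and to 4.41 and 5.46 kb of H3K56ac in LPD and 1.60 and 0.749 kb in B cells. Pecam1 made up 12.96 and 9.11 kb of the H3K18ac and 4.02 and 5.125 kb of the H3K56ac LPD sums, and Cdh5 overlapped in both marks. The part of these cell types in the neuropilin values was not tested.

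Plxnc1, a receptor of Sema7a, held the most acetylated length among the plexins. Its H3K27ac peaks covered 16.6 and 9.96 kb in LPD and 7.37 and 8.17 kb in B cells, a log2 ratio of 0.77. Its H3K18ac peaks covered 22.7 and 15.5 kb in LPD and 3.89 and 4.64 kb in B cells, a log2 ratio of 2.17. Its H3K56ac peaks covered 10.64 and 11.4 kb in LPD and 3.03 and 2.79 kb in B cells, a log2 ratio of 1.92. The LPD lists were above the B cell lists in each mark, least so in H3K27ac.

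Plxnb2, a receptor of class 4 semaphorins including Sema4d, had short peaks in B cells. Its H3K27ac peaks covered 3.19 and 2.105 kb in LPD, against 0 and 0.272 kb in B cells. Its H3K18ac peaks covered 3.55 and 2.81 kb in LPD, against 0.445 and 0.225 kb in B cells, a log2 ratio of 3.25. The groups did not overlap in these marks or in H3K56ac, where the log2 ratio was 2.12.

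Plxnd1, a receptor of several semaphorins including Sema4a, and Plxna1, a partner of neuropilins, were the least acetylated receptors in LPD by summed length. Plxnd1 and Plxna1 carried under 3 kb of each mark in every list. Their H3K27ac ranges overlapped, with Plxnd1 at 1.34 and 0.420 kb in LPD and 0.696 and 0.466 kb in B cells, and Plxna1 at 0.578 and 0 kb in LPD and 0.286 and 0.208 kb in B cells. In H3K18ac Plxnd1 covered 2.95 and 2.06 kb in LPD and 0.785 and 1.45 kb in B cells. Plxna1 covered 2.78 and 2.002 kb in LPD and 1.16 and 1.91 kb in B cells, longer in both LPD lists by little. Nearly all of it lay outside the gene, with 2.46 and 2.002 kb in LPD and 1.16 and 1.91 kb in B cells more than 1 kb from the span, and per Mb of list the groups overlapped and the ratio turned to -0.24. Plxnd1 overlapped per Mb of list too. In H3K56ac Plxnd1 overlapped, at 0.325 and 0.660 kb in LPD and 0.731 and 0 kb in B cells, and Plxna1 had 0.233 and 0.740 kb in LPD with no peak in B cells. The promoter of Plxnd1 differed the other way from those of the neuropilins in H3K27ac, with a peak over its window in both B cell lists and in neither LPD list. These peaks made up a lost region only 0.238 kb wide that did not cover the start. No H3K18ac or H3K56ac list had a peak over that window.

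Regions, each the union of overlapping or touching peaks of the 4 lists of a mark, also differed between ligands and receptors. A gained region had a peak in each LPD list and in no list of B cells, and a lost region the reverse. In H3K27ac, 25 of the receptors' 56 regions were gained and 3 lost, and 2 of the ligands' 55 were gained and 9 lost, 7 of those 9 at Sema4d. Of all 40435 H3K27ac regions, 11.4% were gained and 15.9% lost. In H3K18ac, 39 of 79 receptor regions were gained and 2 lost, against 10 gained and 5 lost of 64 ligand regions, beside 25% gained and 3.88% lost of all 44756. In H3K56ac, 37 of 68 receptor regions were gained and none lost, against 8 gained and 6 lost of 46 ligand regions, beside 23.7% gained and 4.21% lost of all 34515.

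**Figure D3:**
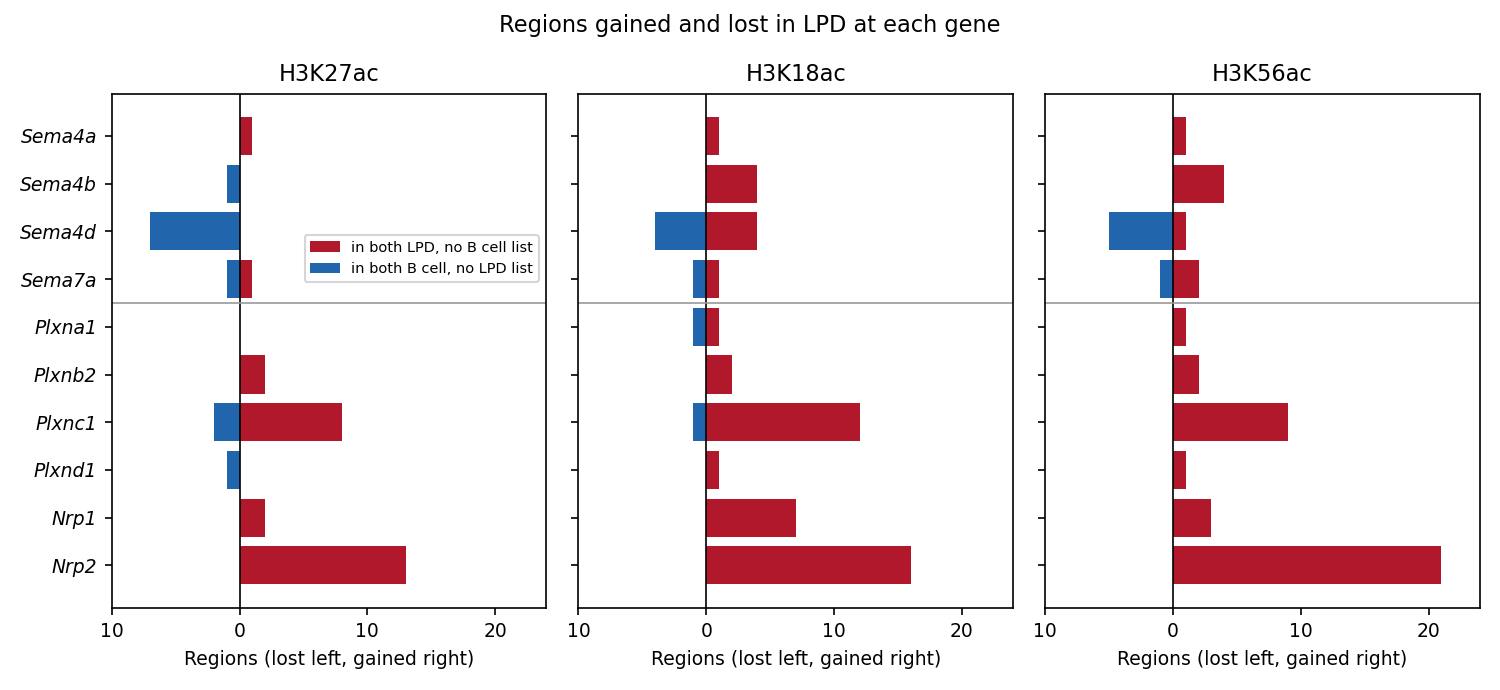
Number of regions lost (blue, to the left) and gained (red, to the right) in LPD at each gene, by mark; the grey line parts ligands from receptors. Nrp2 has 13, 16 and 21 gained regions in H3K27ac, H3K18ac and H3K56ac, and Sema4d has 7, 4 and 5 lost.

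Nrp2 and Plxnc1 held most of the gained receptor regions. Nrp2 had 13, 16 and 21 gained regions in H3K27ac, H3K18ac and H3K56ac and lost none. Plxnc1 had 8, 12 and 9. Without the second LPD list the 10 genes' gained regions came to 48 in place of 27 for H3K27ac and to 96 in place of 49 for H3K18ac. Lost H3K27ac regions came to 21 without the first B cell list and 27 without the second, in place of 12, and lost H3K56ac regions to 10 and 11 in place of 6. A call that needs fewer lists to agree is met more often.

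Gained receptor regions overlapped between marks about as often as gained regions of all genes. Of the receptors' 25 gained H3K27ac regions, 20 overlapped a gained H3K18ac region, 13 a gained H3K56ac region and 12 both, which is 80%, 52% and 48%, beside 70.4%, 56.1% and 47.9% of all 4628 gained H3K27ac regions. Of the 10 at plexins, 8 overlapped a gained H3K18ac region, 3 a gained H3K56ac region and 2 both, while of the 13 at Nrp2 it was 10, 9 and 9. The 13 gained H3K27ac regions of Nrp2 lay 0.955 to 80.5 kb past its start (region midpoints), 12 inside the gene and 1 across its first end. None of the 13 had an H3K18ac or H3K56ac peak in a B cell list, where the whole gene had 1 H3K18ac peak per list and no H3K56ac peak. The widest, at chr1:62702842-62705702 over the promoter printed above, was covered for 2.85 and 1.84 kb in LPD and not at all in B cells. The H3K27ac that B cells did have at Nrp2 lay mainly 32.8 kb into the gene, at chr1:62734995-62737278, where LPD peaks covered 2.13 and 1.84 kb and B cell peaks 1.67 and 1.39 kb. These positions are given by gene span, since exon and intron positions were not used here.

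The lost regions of Sema4d lay partly outside the gene. Of its 7 lost H3K27ac regions 3 were inside the span, which begins at -37.0 kb from the outermost tabulated start, and 4 before it. The farthest, at chr13:51813122-51815323, was 57.5 kb before that start. That region had no H3K27ac peak in LPD and was covered for 2.20 and 1.96 kb of H3K27ac in B cells, while H3K18ac peaks at that place covered 0.494 and 0.478 kb in LPD and 1.94 and 2.40 kb in B cells. The gene kept 9 regions, among them chr13:51752426-51757520 at that start, covered for 4.23 and 3.15 kb in LPD and 4.98 and 5.09 kb in B cells. Another kept region lay across the first end of the span, with its midpoint at -36.1 kb from that start. Of the 7 lost H3K27ac regions, 6 had no H3K18ac peak and 7 no H3K56ac peak in either LPD list. In B cells 4 of the 7 had an H3K18ac peak in both lists and 3 in neither. For H3K56ac 2 had a peak in both B cell lists and 3 in neither. Only 3 of the 7 overlapped a lost H3K18ac region, 2 a lost H3K56ac region and 1 both. With peaks beyond 1 kb of the gene left out, the 10 genes had 7 lost H3K27ac regions in place of 12, 4 in place of 7 for H3K18ac and 1 in place of 6 for H3K56ac.

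**Figure D4:**
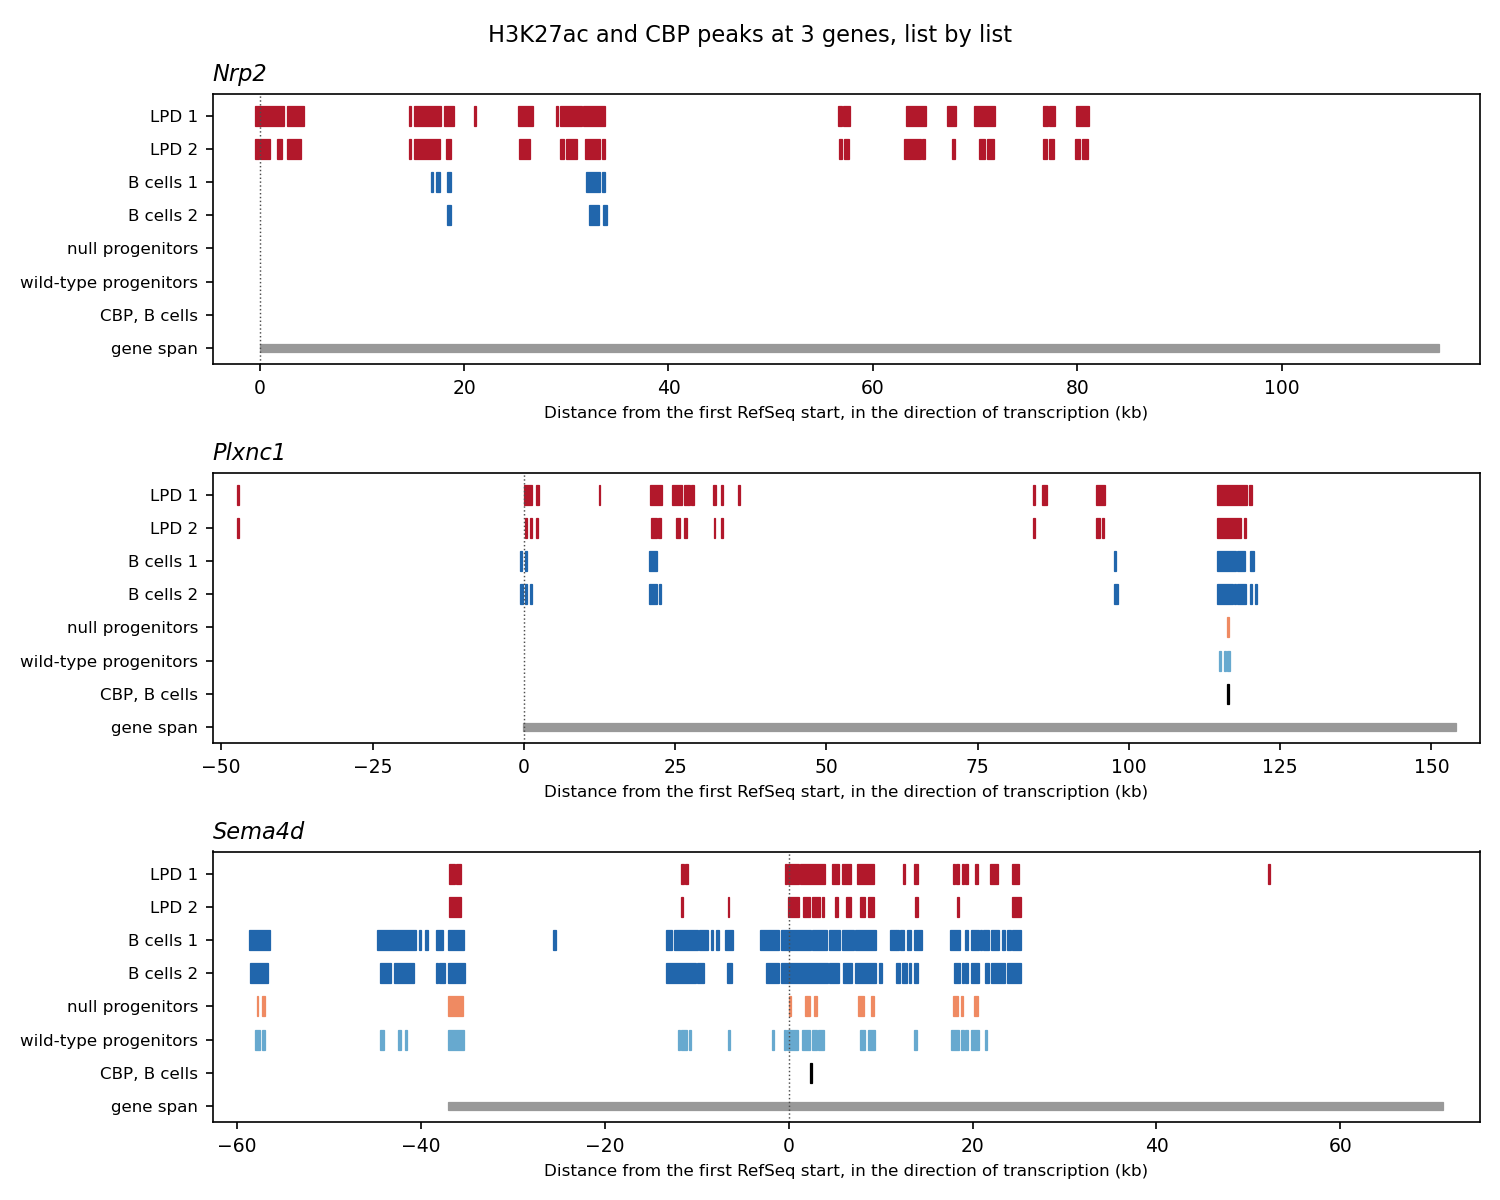
Peaks of each H3K27ac list and of the CBP list at Nrp2, Plxnc1 and Sema4d, by distance (kb) from the first RefSeq start in the direction of transcription (dotted line); grey bars show the gene spans. Nrp2 has peaks from its start to about 80.5 kb in both LPD lists and few in B cells, and Sema4d lacks in LPD the B cell peaks before its span.

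At Sema4b most H3K27ac regions were kept and several differed in the other marks. Of its 13 H3K27ac regions 7 were kept, beside 36.5% of all H3K27ac regions, none were gained and 1 was lost. Of the 7 kept, 5 had an H3K18ac peak in both LPD lists and 3 in both B cell lists, and for H3K56ac these counts were 5 and 3, with no H3K56ac peak in LPD at 2 of them. Of its 19 H3K18ac regions 4 were gained, 2 inside the span and 2 outside it, beside 25% of all H3K18ac regions. Of its 10 H3K56ac regions 4 were gained, all inside the span, beside 23.7% of all H3K56ac regions. The kept region chr7:80205251-80211611 was covered for 6.35 and 6.00 kb of H3K27ac in LPD and 4.56 and 4.11 kb in B cells. The H3K18ac region at that place, chr7:80205239-80211869, was covered for 6.63 and 6.10 kb in LPD and 0.639 and 0.752 kb in B cells. Nearer the start, the H3K18ac region chr7:80197783-80202341 was gained, with 4.56 and 3.60 kb in LPD.

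A CBP peak was assigned to 3 of the 10 genes in wild-type B cells, beside 3.85% of all protein-coding genes. They were Sema4b (chr7:80209770-80210039), Sema4d (chr13:51754168-51754367) and Plxnc1 (chr10:94828342-94828634). Each lay inside the gene span and overlapped a region with peaks in all 4 lists, for H3K27ac and for H3K18ac. The CBP peak itself overlapped an H3K18ac peak in both B cell lists at Sema4d and Plxnc1 and in neither at Sema4b. At Sema4d it overlapped one in 1 of the LPD lists. For H3K56ac it overlapped a peak in both B cell lists at Plxnc1 and in neither at Sema4b and Sema4d. The neuropilin genes had none. The list holds 1000 peaks from 1 sample, so a gene without one may fall below what it could detect.

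In progenitors the acetylated length was mostly at the ligands, and lower in the Crebbp-null list. Ligand H3K27ac peaks covered 8.95 kb in Crebbp-null and 19.2 kb in wild-type progenitors, a log2 ratio of -1.10, and receptor peaks 0.676 kb in Crebbp-null and 2.27 kb in wild-type progenitors, a log2 ratio of -1.75. The Crebbp-null list was shorter as a whole, by a log2 ratio of -0.58, and per Mb of list the values were -0.52 and -1.17. With 1 list per genotype the difference has no replicate check.

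Sema4d held most of this length, with 5.40 kb in Crebbp-null and 12.9 kb in wild-type progenitors, and Sema4b had 3.56 kb in Crebbp-null and 6.00 kb in wild-type progenitors. Plxnc1 had 0.276 kb in Crebbp-null and 1.28 kb in wild-type progenitors. Plxnd1 had 0.4 kb in Crebbp-null and 0.994 kb in wild-type progenitors. Sema7a had no peak in the Crebbp-null list and 0.282 kb in the wild-type list, and the remaining 5 genes had no peak in either. Of 41 regions, none were in the Crebbp-null list only and 20 in the wild-type list only, beside 2.87% and 31% of all 17502 progenitor regions.

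Across wild-type progenitors, wild-type B cells and LPD the genes followed different courses in H3K27ac. Sema4d had 12.9 kb in wild-type progenitors, 35.3 and 31.4 kb in B cells and 13.95 and 8.55 kb in LPD. Nrp2 had no peak in progenitors, 2.74 and 1.88 kb in B cells and 22.6 and 17.0 kb in LPD. Ligand length was 2.76 times as high in B cells as in wild-type progenitors, receptor length 4.86 times and the whole list 2.84 times. Of the 24 wild-type progenitor peaks at Sema4d, 23 overlapped a peak in both B cell lists and 10 in both LPD lists. Of the 11 at Sema4b, 11 did so in B cells and 10 in LPD. Of all 17124 wild-type progenitor peaks, 86.7% overlapped a peak in both B cell lists and 78.9% in both LPD lists, so the share of Sema4d in LPD, 41.7%, lay below that of the whole list.

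In H3K27ac the rest of the pathway was close to all genes in how many were longer or shorter in LPD. Of 42 other semaphorin, plexin, receptor and signalling genes, 25 had an H3K27ac peak, of which 5 were longer and 10 shorter in both LPD lists, beside 23% and 38.9% of all genes. In H3K18ac 26 had a peak, 19 longer and 3 shorter, beside 53.8% and 12% of all genes, and in H3K56ac 26, 22 longer and 2 shorter, beside 67% and 8.44%. Itgb1, the integrin chain that binds Sema7a, had the largest added length in each mark, with 13.0 and 9.59 kb of H3K27ac in LPD and 0.902 and 0.949 kb in B cells. Cd72, the B cell receptor of Sema4d, had 1.12 and 0.469 kb of H3K27ac in LPD and 6.40 and 6.18 kb in B cells. Fyn, a Src family kinase, had 0.838 and 0.604 kb in LPD and 9.98 and 9.28 kb in B cells.

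By Pearson correlation of log2(kb + 0.1) over the 14 acetylation lists, the genes most like Nrp2 were Clic4 (r = 0.994), Ackr2, Ezr, B4galt6 and Crbn (r = 0.986), of 5927 compared. Those most like Sema4d were Klf13 (r = 0.968), Adcy7, Cxxc5, Scel and Ttc14 (r = 0.950). These points share marks, lists and list lengths, so the correlations describe the lists alone.

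Peak lists held 13125 to 39529 acetylation peaks covering 6.32 to 29.5 Mb, and read depth is not known from positions alone. All 8 B cell marker genes tested had an H3K27ac peak and summed to 75.0 and 52.5 kb in LPD and 70.8 and 65.3 kb in B cells, 2 of 8 being shorter in both LPD lists and none longer. In H3K18ac these 8 summed to 56.7 and 39.2 kb in LPD and 16.1 and 18.2 kb in B cells. In H3K56ac they summed to 33.3 and 37.05 kb in LPD and 13.2 and 14.5 kb in B cells. In each of these 2 marks 7 of 8 were longer in both LPD lists, beside 53.8% and 67% of all genes. The 5 erythroid markers summed to 7.05 and 4.08 kb of H3K27ac in LPD and 0.797 and 0.742 kb in B cells, with 4 of 5 at 0 in B cells. The 8 T cell markers summed to 7.83 and 5.09 kb of H3K27ac in LPD and 12.1 and 9.72 kb in B cells, but to 13.3 and 10.3 kb of H3K18ac in LPD and 9.70 and 9.94 kb in B cells. Myeloid markers summed to 1.81 and 0.478 kb of H3K27ac in LPD and 3.32 and 3.55 kb in B cells, with 6 of 8 at 0 in each group, and the other way to 2.92 and 1.83 kb of H3K18ac in LPD and 0.467 and 0.644 kb in B cells, and to 1.42 and 0.422 kb of H3K56ac in LPD and none in B cells. In progenitors 4 of 6 lymphoid progenitor markers had a peak in each list, with 6.55 kb in Crebbp-null and 8.79 kb in wild-type cells. The part of other cell types in the unsorted LPD values was not tested.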

How the data were processed

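ChIP-seq peaks were deposited by the authors as positions only (chromosome, start and end, with no score or coverage), 1 list per sample. The submitters' processing notes name Bowtie2 2.1.0, Picard, MACS2 2.0.10, bedtools and build mm10, without thresholds. Of 30 samples, 15 have a list, and 14 RNA libraries and 1 input were not analysed here. Peaks were assigned to RefSeq protein-coding genes as described, with at least 1 base of overlap counting as shared. Ratios are of covered lengths, with 0.1 kb added where stated. Python 3.11.15, NumPy 2.4.6, pandas 2.3.3 and Matplotlib 3.10.9 were used, and region calls were checked on made-up lists. The genes, lists and comparisons were chosen with earlier results of these data known, so no test was run; 2 lists against 2 could not go below a two-sided exact permutation p of 0.333. All 10 members are named; other pathway genes are named by the largest added or missing length, and like genes by the 5 highest correlations among genes with a mean of at least 1 kb. Alternatives were a narrower and a wider assignment, lists of equal length, the widest 50% of each list, a minimum cover of 25%, length per Mb, another added constant and each list left out, each run on the results it applies to; leaving out Sema4d, or Sema4d and Nrp2, and comparing the lists' order by other lengths were added after seeing the data. The peaks assigned by nearest end that lay farthest were 46.97 kb from Plxnc1 and 46.24 kb from Nrp1, and the nearest beyond the limit were 53.24 kb from Nrp1 and 54.46 kb from Plxna1.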

Additional observations from a re-analysis of the deposited data

Results flagged for a closer look

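In H3K27ac, 2 members whose LPD and B cell ranges did not overlap went one way between progenitors of the 2 genotypes and the other way between LPD and B cells. Plxnc1 changed by -1.002 kb for Crebbp-null minus wild-type progenitors and by 5.50 kb for the mean of LPD minus that of B cells. Sema7a changed by -0.282 kb in progenitors and by 1.58 kb between LPD and B cells. By the same means Sema4b, at -2.45 and 2.16 kb, and Plxnd1, at -0.594 and 0.298 kb, also differed in sign, but their LPD and B cell ranges overlapped. The progenitor values rest on 1 list per genotype, the second comparison also differs in disease and sorting, and the difference between them was not tested.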

How the results depend on the processing

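No paired analysis was possible because the results come from no test. The receptor-minus-ligand difference was recomputed with the narrower assignment, lists of equal length, length per Mb, each list left out, and without Nrp2, Sema4d or both, and kept its sign in all of these but the last, where H3K18ac and H3K56ac turned. With peaks beyond 1 kb of a gene left out it was 2.23 for H3K27ac, 1.06 for H3K18ac and 1.41 for H3K56ac, with lists of equal length 2.58 and 1.47 for the first 2 marks, without Nrp2 1.84, 0.90 and 1.15, without Sema4d 1.59, 0.32 and 0.56, and without both 0.96, -0.16 and -0.21. Without Sema4d the ligand ratios were 0.29, 2.38 and 2.39, the first reversed. The narrower assignment gave 7 lost H3K27ac, 4 lost H3K18ac and 1 lost H3K56ac region, ligand log2 ratios of 1.81 for H3K18ac and 1.48 for H3K56ac, and turned Sema4d in H3K56ac to 0.20. Lists of equal length gave 30 gained H3K18ac and 24 gained H3K56ac regions, H3K56ac ratios of 0.83 for ligands and 2.60 for receptors, and a progenitor ligand ratio of -0.88. The widest 50% of each list gave 31 gained H3K18ac, 23 gained H3K56ac and 2 lost H3K56ac regions. Per Mb of list, ligand ratios were 0.42 for H3K18ac and 0.21 for H3K56ac, receptor ratios 1.79 and 2.14, progenitor ratios -0.52 for ligands and -1.17 for receptors, and Sema7a and Plxna1 turned to -0.14 and -0.24 in H3K18ac, where Sema4d moved to -0.68. The narrower assignment moved Sema4d to 1.003 and Plxna1 to 1.39 in H3K18ac, and Sema4b per Mb was 0.47 in H3K27ac. Leaving out 1 list gave 28 to 48 gained and 13 to 27 lost H3K27ac regions, 53 to 96 gained H3K18ac regions and 6 to 11 lost H3K56ac regions. Where lists were left out or shortened, the calls rest on fewer peaks by construction. By Spearman's rho 1 of the 5 genes like Nrp2 and none of those like Sema4d stayed among the 5 highest. Positions without scores limit every value to presence and width.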
